A study of Homo sapiens and Mus musculus with 213 samples.

Results

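The clustered protocadherins are 54 of the 58336 genes listed in the RNA-seq files of the study. They were chosen by symbol alone, as genes on chromosome 5 whose GENCODE name is PCDHA, PCDHB or PCDHG followed by an optional subtype letter and a number. By hg38 coordinates, 16 alpha members including the pseudogene PCDHA14 lay at chr5:140786136-141012347, 16 beta members at chr5:141051374-141249365 and 22 gamma members at chr5:141330514-141512977, all on the plus strand. The rule itself uses no expression value.

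The study edited a guanine-rich motif at the MYC promoter of HEK293T cells, an immortal line that stems from human embryonic kidney. That motif can fold into a G-quadruplex (G4), a 4-stranded DNA structure. Of the 213 samples listed, the 9 RNA-seq libraries are described here, with 3 libraries for each of 3 lines. The MYC WT line has the natural motif, the MYC MUT line has base changes in the G-runs so that the G4 cannot fold, and in SWP cells the motif was replaced by a different G4 motif. The edited lines are homozygous clones expanded from single sorted cells, and the labels name no treatment for these 9 libraries. The sources used here do not say how many clones the 3 RNA-seq libraries of a line hold, and the sample titles number the libraries Bio1 to Bio3 without saying what was repeated. Thus the edit and the clone cannot be told apart, and p-values measure only the spread between these libraries.

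Protocadherins are cadherin-like adhesion proteins of the cell surface, best known in the nervous system. In the alpha and gamma clusters, each member has its own promoter and its own large first exon, called the variable exon, which is spliced to 3 constant exons shared by the whole cluster, while beta members are single-exon genes. In neurons each cell uses a small set of these promoters, chosen largely at random through DNA methylation, CTCF, cohesin and distant enhancers, and the resulting proteins bind like to like, which lets a neuron recognise its own branches. The C-type members (PCDHAC1, PCDHAC2, PCDHGC3, PCDHGC4 and PCDHGC5) lie at the ends of the alpha and gamma clusters and are used constitutively by many neurons rather than chosen at random.

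The promoters of a cluster carry a shared element, and the stretches of 100 bases before the start site are shown for 8 members that carry the results described next. Sequences are RefSeq's on GRCh38.p14, plus strand, 5′ to 3′. Capitals mark the 9-letter element of the cluster (GATGTCGCT in alpha, GGTGGCGCT in beta, GCGCCGCTG in gamma) and, in PCDHAC1 and PCDHGC3, which hold none of these, every CGCT.
PCDHA10, chr5:140855797-140855896: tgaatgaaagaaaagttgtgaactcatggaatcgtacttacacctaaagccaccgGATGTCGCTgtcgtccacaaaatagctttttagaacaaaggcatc
PCDHAC1, chr5:140926199-140926298: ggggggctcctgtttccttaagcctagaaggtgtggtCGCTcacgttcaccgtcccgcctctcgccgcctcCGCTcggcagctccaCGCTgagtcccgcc
PCDHB2, chr5:141094515-141094614: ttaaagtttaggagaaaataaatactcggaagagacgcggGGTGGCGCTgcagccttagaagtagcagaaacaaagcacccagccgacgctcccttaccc
PCDHB10, chr5:141192253-141192352: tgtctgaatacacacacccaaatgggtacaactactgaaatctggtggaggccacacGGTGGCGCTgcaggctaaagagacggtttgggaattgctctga
PCDHB14, chr5:141223243-141223342: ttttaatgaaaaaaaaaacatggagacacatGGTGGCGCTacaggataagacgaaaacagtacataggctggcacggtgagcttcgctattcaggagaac
PCDHGA7, chr5:141382642-141382741: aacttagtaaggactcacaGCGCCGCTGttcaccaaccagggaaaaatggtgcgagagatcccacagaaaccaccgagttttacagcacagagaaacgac
PCDHGA11, chr5:141420951-141421050: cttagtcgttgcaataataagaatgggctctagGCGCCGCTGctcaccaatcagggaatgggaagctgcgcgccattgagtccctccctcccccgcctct
PCDHGC3, chr5:141475866-141475965: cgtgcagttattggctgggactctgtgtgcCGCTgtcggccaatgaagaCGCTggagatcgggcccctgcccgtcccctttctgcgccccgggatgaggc

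RefSeq windows of 250 bases before to 50 bases after the start were at hand for 47 of the 54 members. Those of PCDHA9 and PCDHA11 lie inside the gene by GENCODE, so sequence before the GENCODE start was not searched there. The alpha element was found in 9 of 13 alpha members with a window and in 0.105% of all 35116 windows, the beta element in 13 of 14 beta members and 0.501%, and the gamma element in 10 of 20 gamma members and 1.28%, searching both strands. No element was found in a member of another cluster. The 3 elements share the letters CGCT, which occurred in 46 of the 47 members and in 70.0% of all windows. They were found by looking at these windows, so the shares are a description and the letters are no proof of a bound site.

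The targeted gene, MYC on chromosome 8, was lower in MYC MUT. Its normalized read counts, which are reads per gene divided by a size factor of the library, were 20020, 28396 and 21580 in MYC WT, 10693, 11176 and 12400 in MYC MUT, and 14480, 24743 and 25245 in SWP. The log2 fold change of MYC MUT over MYC WT was -1.02 (SE 0.19, adjusted p = 0.00182 by limma), and that of SWP was -0.15 (SE 0.19, adjusted p = 0.712). Reads on genes ranged from 65024354 to 98497026 over the 9 libraries. A sequencing-pool suffix stands in the names of the 3 MYC WT libraries and is missing from those of MYC MUT and SWP, so pool and line cannot be told apart in comparisons with MYC WT, and values of MYC MUT against SWP are given beside them.

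Reads of alpha and gamma members could be shared out in more than 1 way. The alpha constant exons lie at chr5:140978949-140979007, chr5:140982475-140982563 and chr5:141009627-141012347 and belong to 15 of the 16 alpha members in GENCODE. The gamma constant exons lie at chr5:141494807-141494865, chr5:141505393-141505481 and chr5:141510947-141512975 and belong to all 22 gamma members. PCDHA6 includes the alpha constant exons, yet it had 0 reads in all 9 libraries while PCDHA10 had 1467, so reads on the constant exons were not added to every member. The counts of a member are therefore read as reads on sequence of its own, and whether reads on constant exons were dropped or given to some members is not stated in the sources used here. The aligner, bwa mem, is not splice-aware, and variable exons of a cluster resemble each other, so a read could also have been placed on a near-identical member. Genes outside the 54 that overlap a member, antisense ones included, had at most 8 reads over all libraries. Some members also overlap other members outside the constant exons. PCDHGB4 and PCDHGA8 each share 4443 exon bases, against 2177 for PCDHGA7.

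Most clustered protocadherins were raised in MYC MUT. Of the 54 members, 51 had a read in some library, and in 41 of them the 3 MYC MUT libraries all lay above the 3 MYC WT libraries, against 17.5% of the 37215 genes with a read. By cluster these were 9 of 16 alpha, 15 of 16 beta and 17 of 22 gamma members. No member lay lower without overlap, against 16.9% of genes. The other 13 comprised PCDHA6, PCDHA14 and PCDHB1, which had no read, and PCDHA2, PCDHA3, PCDHA5, PCDHA8, PCDHA9, PCDHGA2, PCDHGB5, PCDHGB6, PCDHGA12 and PCDHGC5, whose libraries overlapped.

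**Figure D1:**
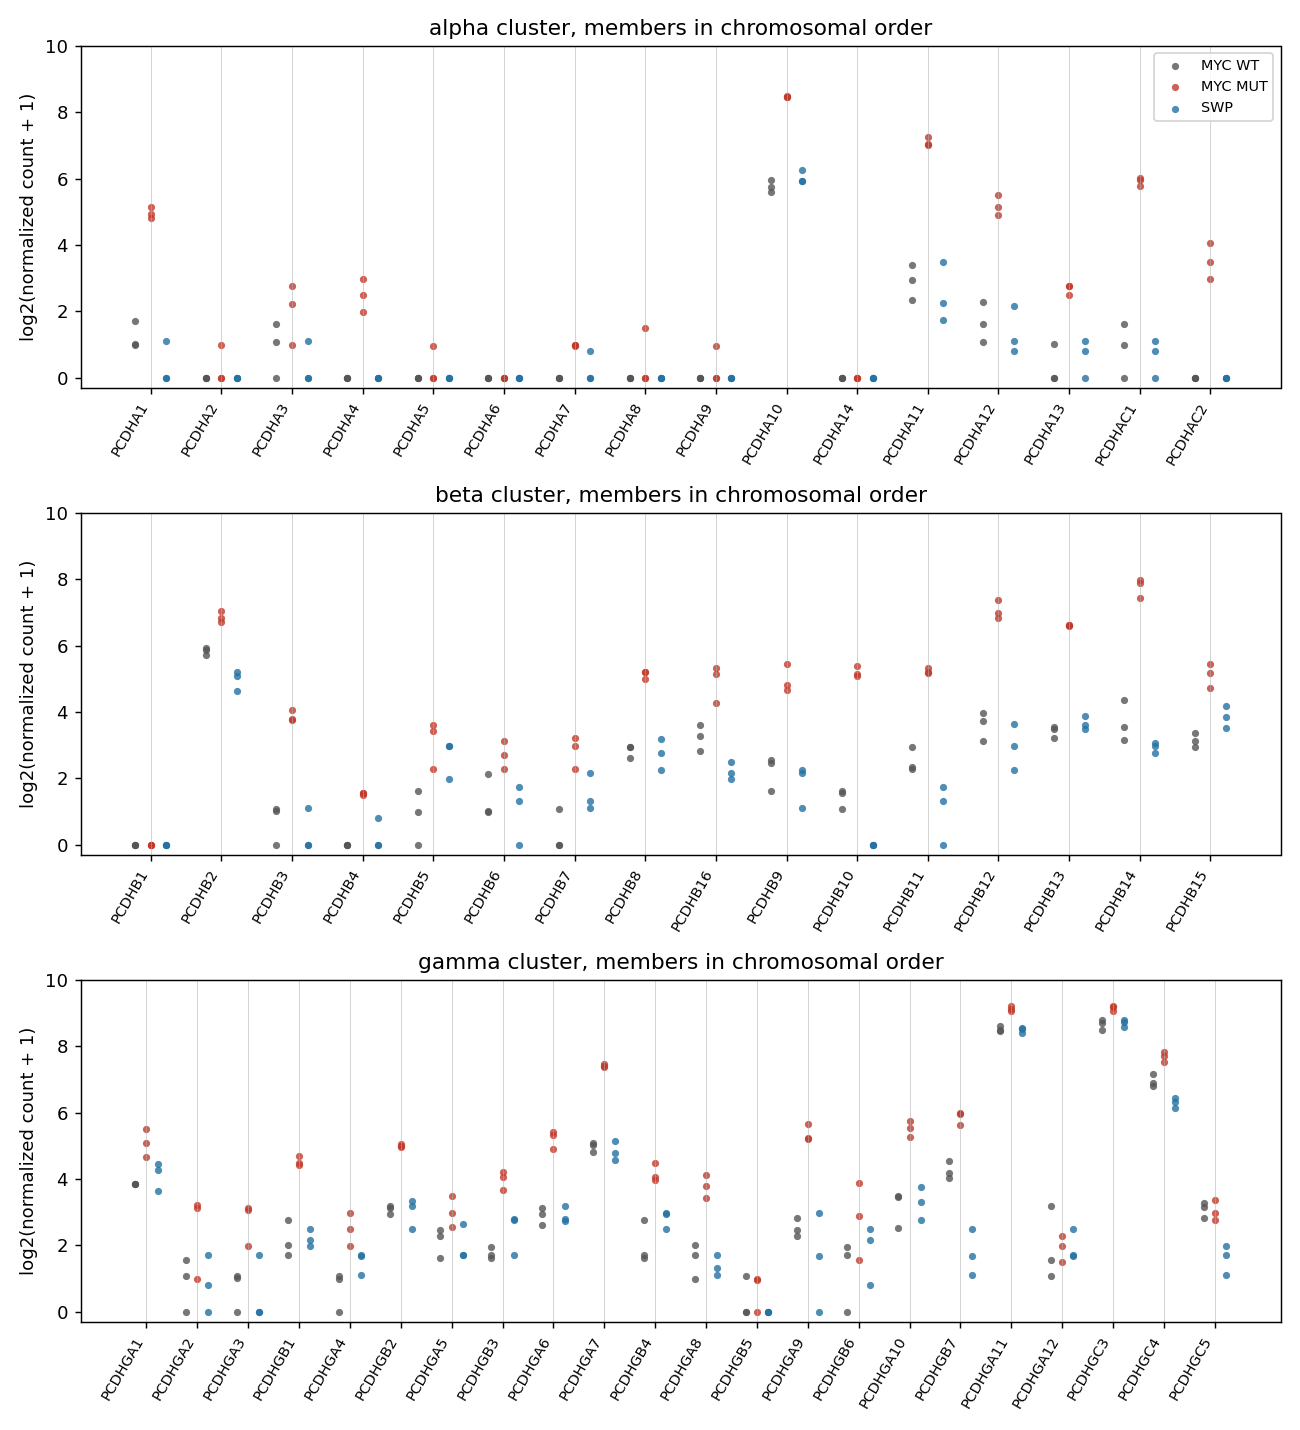
Level of each of the 54 clustered protocadherins, as log2(normalized count + 1), in each of the 9 libraries (points; grey MYC WT, red MYC MUT, blue SWP), with members in chromosomal order and a panel per cluster. In 41 members all 3 red points lie above all 3 grey points, and PCDHGC3 and PCDHGA11 are high in every library.

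In the test across genes, 24 of the 25 members that reached a mean of 10 normalized counts were called higher in MYC MUT against MYC WT and 0 lower (limma, with thresholds of 0.05 on the adjusted p and 0.5 on the absolute log2 fold change). Of all 20884 genes tested, 11.3% were called higher and 10.1% lower. The calls that were higher made up 52.8% of all calls, and 64.2% with libraries scaled to equal totals. The other member, PCDHGC3, rose by less than the fold required. At an unadjusted p under 0.05 limma had 25 members higher and 0 lower, and edgeR and DESeq2 each called 25 higher and 0 lower.

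The minimum favours members that were high in 1 line. The other 29 members were not tested at this minimum, and 13 of the 25 that were had means under 10 in both MYC WT and SWP and passed only through MYC MUT. A fit of all genes with any read called 38 of 51 members higher and 0 lower, against 7.48% of genes higher. Some of these calls rest on very few reads. PCDHA7 had 1 read in each MYC MUT library (limma, adjusted p = 0.0490) and PCDHB4 had 2 in each (adjusted p = 0.00469), both with 0 in MYC WT. Both are also among the 41 members without overlap. Among the 10 members with a MYC WT mean of at least 10, 9 were called higher in a fit with that minimum, against 10.2% of genes, with log2 fold changes from 0.49 to 4.08 and a median of 1.42 over the 10, beside a median of -0.02 over all genes in that fit. Over the 25 members first tested the median was 2.44, which includes the 13 that passed only through MYC MUT.

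The sum of all alpha members showed the largest ratio between lines. It was 59.5, 71.8 and 68.3 normalized counts in MYC WT, 638, 642 and 657 in MYC MUT, and 76.8, 66.9 and 79.6 in SWP. The ratio of the means of MYC MUT and MYC WT was 9.70. The 3 MYC MUT libraries lay far above the other 6, which overlapped.

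Beta members summed to 124, 135 and 122 in MYC WT, 915, 715 and 786 in MYC MUT, and 90.5, 86.9 and 103 in SWP, a ratio of MYC MUT to MYC WT of 6.34. For the gamma members the sums were 1001, 1092 and 962 in MYC WT, 1926, 1827 and 1832 in MYC MUT, and 1008, 912 and 964 in SWP, a ratio of 1.83. MYC MUT was separate from the other lines in every cluster. The ratio of SWP to MYC WT was 1.12 for alpha, 0.735 for beta and 0.944 for gamma, and the SWP libraries lay below every MYC WT library only in beta. In bulk RNA, more cells with a transcript and more transcript per cell cannot be told apart.

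**Figure D2:**
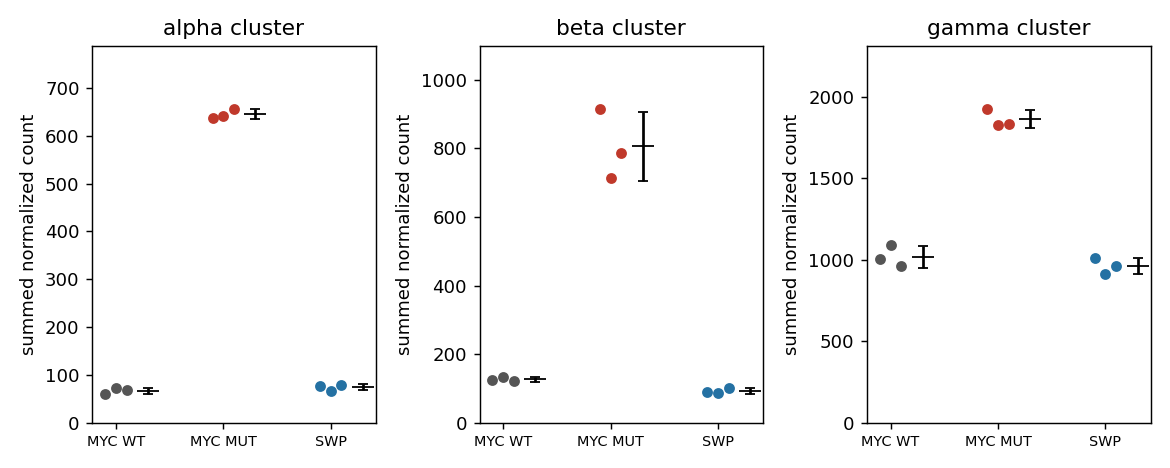
Summed normalized read count of the alpha, beta and gamma members in each library (points), with the mean and SD of 3 libraries per line (black), on separate linear axes that start at 0. The MYC MUT libraries stand above the other lines in each cluster, with ratios of means over MYC WT of 9.70, 6.34 and 1.83.

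Alpha members with variable exons were low outside MYC MUT, apart from PCDHA10. PCDHA10 (ENSG00000250120, chr5:140855883-141012347) had 47.2, 60.6 and 52.9 normalized counts in MYC WT, 359.6, 354 and 352 in MYC MUT, and 59.6, 60.2 and 75.0 in SWP. The MYC MUT libraries were 6.63-fold higher than MYC WT on average (log2 fold change 2.71, SE 0.15, adjusted p = 5.82e-07), while SWP was 0.27 above MYC WT on the log2 scale (SE 0.15, adjusted p = 0.318). An annotated exon of PCDHA10 runs over PCDHA14 and the start of PCDHA11, so part of its reads could stem from there.

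PCDHA11 had 4.10, 6.73 and 9.63 counts in MYC WT, 128, 131 and 153 in MYC MUT, and 10.3, 3.71 and 2.31 in SWP. It rose 20.2-fold in MYC MUT (log2 fold change 4.21, SE 0.43, adjusted p = 2.88e-05). PCDHA1 and PCDHA12 followed the same order of lines at lower counts. PCDHA1 had 1.03, 2.24 and 0.963 counts in MYC WT against 29.6, 34.0 and 27.3 in MYC MUT (adjusted p = 6.24e-05), and PCDHA12 had 2.05, 1.12 and 3.85 against 28.7, 34.0 and 44.8 (adjusted p = 0.000133). In the annotation only 7 exon bases of PCDHA1 overlap no other gene on either strand, so no level per length of its own was formed. Besides the constant exons, 2719 of its bases overlap an antisense lncRNA. That gene had 2 reads over all libraries, against 100 for PCDHA1, and how strand was used in counting is not stated.

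The alpha C-type members were almost silent outside MYC MUT. PCDHAC1 (ENSG00000248383) had 3 reads over the MYC WT libraries, 187 over the MYC MUT libraries and 2 over the SWP libraries. Its normalized counts were 63.8, 61.2 and 53.6 in MYC MUT, and the ratio of pooled reads to MYC WT was 57.7 (95% exact binomial interval 19.5 to 282, counting error only). The fitted log2 fold change was 5.06 (SE 0.46, adjusted p = 1.45e-05).

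PCDHAC2 had no read in MYC WT or SWP and 10.2, 15.6 and 6.82 normalized counts in MYC MUT. The MYC MUT level was thus at least 10.5-fold higher, taking 3 reads over the group as the limit that a count of 0 allows. It did not reach the minimum mean, and the fit of all genes with any read called it higher (adjusted p = 2.58e-05). PCDHA4 was likewise without a read in MYC WT and SWP and had 15 reads in MYC MUT, which was at least 4.63-fold higher. All 5 alpha members tested were called higher in MYC MUT, against 11.3% of all tested genes, but 4 of them (PCDHA1, PCDHA11, PCDHA12 and PCDHAC1) reached the minimum only through MYC MUT, so this count is no support by itself.

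Beta members have no constant exons, although reads may still be placed on a near-identical paralog. All 10 tested were called higher in MYC MUT, against 11.3% of all tested genes, but PCDHB8, PCDHB16, PCDHB9, PCDHB10 and PCDHB11 reached the minimum only through MYC MUT. PCDHB14 (ENSG00000120327, chr5:141223343-141227759) had 19.5, 7.86 and 10.6 counts in MYC WT, 251, 172 and 234 in MYC MUT, and 5.73, 7.43 and 6.92 in SWP. It rose 17.3-fold (log2 fold change 4.08, SE 0.31, adjusted p = 3.96e-06), from 10.1% to 27.1% of the beta counts. PCDHB14 thus held the largest share of beta counts in MYC MUT, counts not being scaled for length.

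PCDHB2 (ENSG00000112852, chr5:141094606-141098703) held the largest share in the other lines. It had 51.3, 59.5 and 57.8 counts in MYC WT, 131, 104 and 114 in MYC MUT, and 24.1, 32.7 and 35.7 in SWP. The 3 lines did not overlap, and SWP was the lowest. The rise in MYC MUT was 2.07-fold (log2 fold change 1.03, SE 0.19, adjusted p = 0.0015), the smallest among the beta members named here.

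PCDHB12 had 12.3, 14.6 and 7.70 counts in MYC WT against 164, 113 and 125 in MYC MUT, an 11.6-fold rise (adjusted p = 3.5e-05). PCDHB10 had 5 reads over the MYC WT libraries and none in SWP. In MYC MUT its normalized counts were 40.7, 33.1 and 34.1, or 21.1-fold above MYC WT (adjusted p = 1.44e-05). PCDHB13, at 8.20, 10.1 and 10.6 in MYC WT and 98.0, 95.3 and 97.4 in MYC MUT, was even between the libraries of a line (log2 fold change 3.21, SE 0.22, adjusted p = 2.06e-06).

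Among the 10 gamma members tested, 9 were called higher in MYC MUT, against 11.3% of all tested genes. In the fit of all genes with any read 15 of 22 were, against 7.48% of genes. PCDHGB2, PCDHGA6, PCDHGA9 and PCDHGA10 reached the minimum only through MYC MUT. PCDHGA7 (ENSG00000253537, chr5:141382739-141512975) had 32.8, 26.9 and 31.8 counts in MYC WT, 176, 164 and 169.5 in MYC MUT, and 34.4, 26.7 and 23.1 in SWP, a 5.57-fold rise in MYC MUT (log2 fold change 2.44, SE 0.19, adjusted p = 4.62e-06). PCDHGA9 had 6.15, 4.49 and 3.85 counts in MYC WT and 49.9, 36.0 and 37.0 in MYC MUT, an 8.48-fold rise (log2 fold change 2.85, SE 0.60, adjusted p = 0.00323).

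PCDHGA11 (ENSG00000253873) was abundant in every line, with 353, 389 and 360.0 counts in MYC WT, 539.8, 553 and 589 in MYC MUT, and 378, 337 and 369 in SWP. Its rise in MYC MUT was 1.53-fold (log2 fold change 0.61, SE 0.10, adjusted p = 0.000539). Lines MYC WT and SWP overlapped for this gene, and MYC MUT stood above both.

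The C-type gamma members differed among themselves. PCDHGC3 (ENSG00000240184, chr5:141475947-141512977), the most abundant member, had 418, 440.0 and 360.0 counts in MYC WT, 596, 579 and 535 in MYC MUT, and 443, 383 and 426 in SWP. The log2 fold change in MYC MUT was 0.49 (SE 0.11, adjusted p = 0.00428), just under the fold required for a call, although MYC MUT did not overlap the other lines.

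PCDHGC4 had 112, 143 and 119 counts in MYC WT, 208, 226 and 184 in MYC MUT, and 69.9, 85.4 and 78.4 in SWP. It rose 1.65-fold in MYC MUT (log2 fold change 0.72, SE 0.15, adjusted p = 0.00314). PCDHGC5, not tested at the minimum mean, had 6.15, 7.86 and 8.66 counts in MYC WT and 9.24, 5.83 and 6.82 in MYC MUT, which overlapped (log2 fold change -0.05, SE 0.39, adjusted p = 0.983 in the fit of all genes with any read). Likewise PCDHGA12 was not higher, with 8.20, 1.12 and 1.93 counts in MYC WT and 1.85, 3.89 and 2.92 in MYC MUT.

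**Figure D3:**
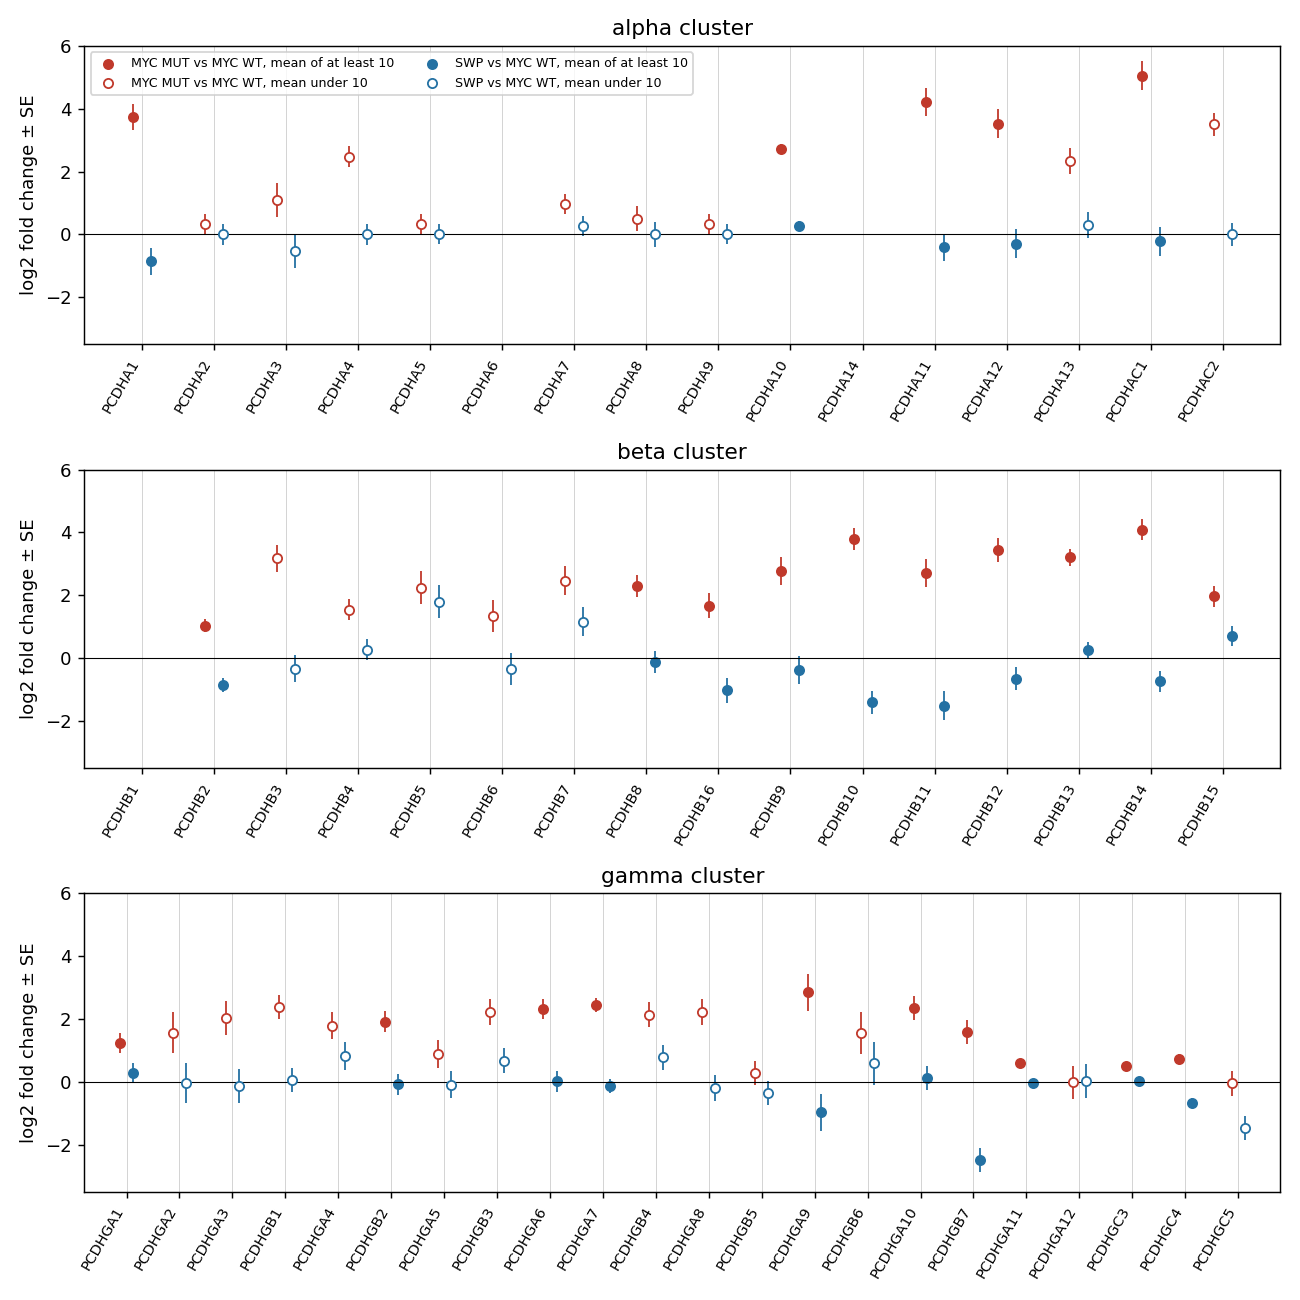
Log2 fold change over MYC WT (of normalized count + 1) with its SE (lines) for each member with a read, in chromosomal order, for MYC MUT (red) and SWP (blue), with filled points for the 25 members tested and open points for members with a mean under 10, from the fit of all genes with any read. Filled red points run from 0.49 for PCDHGC3 to 5.06 for PCDHAC1, and the lowest filled blue point is PCDHGB7 at -2.50.

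The repertoire over all members was broader in MYC MUT. Between 37 and 40 members per library had a read in MYC WT, 46 to 50 in MYC MUT and 34 to 39 in SWP, and at 5 or more reads the counts of members were 20 to 22, 35 to 42 and 17 to 20. The effective number of members, which is the inverse of the summed squared shares and would be 1 if a single member held all counts, was 4.53 ± 0.158 (SD, n = 3) in MYC WT, 11.3 ± 0.619 in MYC MUT and 4.01 ± 0.113 in SWP. Within beta, the effective number was higher than MYC WT (3.89 to 4.52) in both MYC MUT (6.27 to 7.36) and SWP (5.06 to 6.55). In gamma SWP (2.87 to 3.09) lay below MYC WT (3.20 to 3.36), and in alpha these lines overlapped. All members together summed to 15.7 ± 1.13 RPM (reads scaled by the total counted on genes) in MYC WT, 45.1 ± 1.74 in MYC MUT and 15.1 ± 0.469 in SWP. Because more reads let more members be seen, the counts of members with a read depend on these levels, whereas the shares do not rest on detection alone.

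PCDHGC3 held 33.5% ± 2.06 (SD, n = 3) of all clustered protocadherin counts in MYC WT, 17.2% ± 0.940 in MYC MUT and 36.9% ± 0.920 in SWP. PCDHGA11 was likewise lower in share in MYC MUT, at 30.3% ± 0.800 in MYC WT, 16.96% ± 1.29 in MYC MUT and 32.0% ± 0.300 in SWP. These shares were lower in MYC MUT although the counts of both members were higher there. PCDHA10 went from 4.41% to 10.7%, PCDHB14 from 1.06% to 6.59% and PCDHA11 from 0.567% to 4.16%. Within alpha, PCDHA10 held 80.4% ± 3.58 of the counts in MYC WT, 55.0% ± 1.41 in MYC MUT and 87.3% ± 8.63 in SWP.

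**Figure D4:**
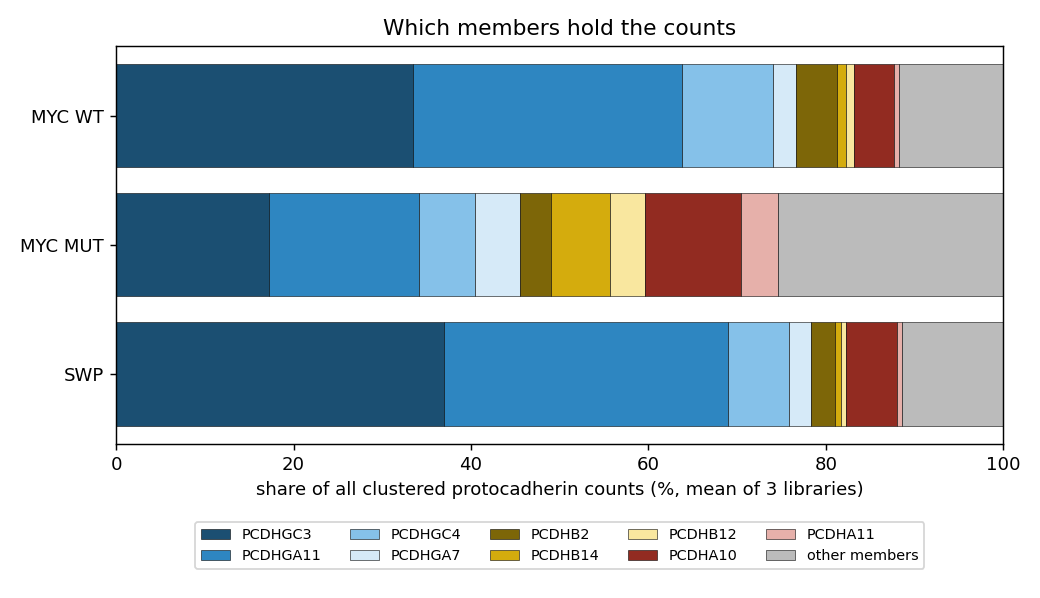
Share of all clustered protocadherin counts, in percent, held by 9 members and by the other members together (stacked bars, means of 3 libraries per line). PCDHGC3 and PCDHGA11 hold 33.5% and 30.3% in MYC WT and smaller, nearly equal parts in MYC MUT, where PCDHA10, PCDHB14, PCDHA11 and the other members widen.

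Levels can be compared between members only per length. Per kilobase of exon that no other gene shares, the order in MYC WT was PCDHGC3 (125 ± 12.7 normalized counts per kb, SD, n = 3), PCDHGA11 (101 ± 5.37), PCDHGC4 (44.6 ± 5.75), PCDHB2 (24.4 ± 1.89), PCDHGA7 (9.35) and PCDHGB7 (6.60). The first 5 places were the same in SWP. In MYC MUT, the level per kb was 175 ± 9.76 for PCDHGC3, 154 ± 7.05 for PCDHGA11, 73.7 ± 7.44 for PCDHGC4, 52.1 ± 1.74 for PCDHGA7, 51.6 ± 9.81 for PCDHB14 and 50.6 ± 5.99 for PCDHB2. On this length the last 3 of these did not differ beyond their spread, whereas in MYC WT PCDHGA7 and PCDHB14 (2.98 ± 1.43) lay below PCDHB2. The length of PCDHB2 leaves out 1797 of its 4098 exon bases, which overlap an antisense gene with 0 reads. Over all its exon PCDHB2 was at 28.4 per kb in MYC MUT, beside 49.6 for PCDHB14, so their near tie rests on the length used. All exon includes constant exons and stretches that antisense genes overlap. Per kilobase of it, PCDHGC3 and PCDHGA11 (96.5) still led in MYC MUT. PCDHB14 (49.6) then stood above PCDHGC4 (41.4), followed by PCDHB12 (34.5) and PCDHGA7 (31.2), and PCDHB2 left the first 6 places. The order below the first 2 thus depends on the length used.

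SWP was close to MYC WT in most members. Limma called 0 of 25 tested members higher and 4 lower, against 2.15% and 2.98% of all tested genes, and the median log2 fold change was -0.31 over the members and -0.06 over all tested genes. Of the higher direction, 1 member passed an unadjusted p under 0.05 and none passed by edgeR or DESeq2. In the lower direction, 7 passed an unadjusted p under 0.05 and 3 were called by edgeR and by DESeq2. All 3 SWP libraries lay above the 3 MYC WT libraries in PCDHB5, PCDHB7, PCDHB15 and PCDHGA4, and below them in PCDHB2, PCDHB16, PCDHB10, PCDHB11, PCDHB14, PCDHGB7, PCDHGC4 and PCDHGC5, against 6.44% and 10.4% of the genes with a read. The 16 alpha members all overlapped. PCDHA2, PCDHA4, PCDHA5, PCDHA6, PCDHA8, PCDHA9, PCDHA14 and PCDHAC2 had no read in either line and could not do otherwise.

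PCDHGB7 was the clearest of the 4. It had 15.4, 22.4 and 17.3 counts in MYC WT, 61.0, 48.6 and 62.3 in MYC MUT, and 1.146, 2.23 and 4.61 in SWP. In SWP it fell by 2.50 on the log2 scale (SE 0.35, adjusted p = 0.00102), while in MYC MUT it rose by 1.60 (SE 0.35, adjusted p = 0.00405). The call in SWP held under every alternative run.

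PCDHB2 was called lower in SWP (log2 fold change -0.86, SE 0.19, adjusted p = 0.0155), as was PCDHGC4 (log2 fold change -0.67, SE 0.15, adjusted p = 0.0168). Both calls were lost with only the 2 lines in the fit and without MYC WT replicate 2, and that of PCDHB2 also without replicate 3, with adjusted p up to 0.0663 and 0.0666 over all alternatives. PCDHB10 was at 0 in all SWP libraries, which was at least 1.77-fold lower (limma, adjusted p = 0.0253), but MYC WT had only 5 reads, edgeR and DESeq2 did not call it, and the call was lost without any single SWP library or without MYC WT replicate 1 or 3.

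With the replicate number as a block, which the libraries of SWP and MYC WT bore out only in part, PCDHB11 was also called lower. That made 5 members in all (limma, log2 fold change -1.51, SE 0.42, adjusted p = 0.0256). Its adjusted p without the block was 0.0525, at 4.10, 6.73 and 3.85 counts in MYC WT and 0, 1.49 and 2.31 in SWP. In the fit of all genes with any read, PCDHGC5 was called lower (1.146, 2.97 and 2.31 counts in SWP, log2 fold change -1.48, SE 0.39, adjusted p = 0.0458), with 5 members lower in all against 1.82% of genes. Higher values in SWP did not pass the test, such as those of PCDHB15, with 9.23, 6.73 and 7.70 counts in MYC WT and 17.2, 13.4 and 10.4 in SWP (log2 difference 0.70, SE 0.29, adjusted p = 0.162).

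MYC MUT was also higher than SWP, the comparison in which library names do not differ. Limma called 24 of 25 tested members higher and 0 lower, against 12.3% and 8.31% of tested genes, with a median log2 fold change of 2.70. Of these 25, 13 had means under 10 in MYC WT and SWP and passed only through MYC MUT, so this count is no support by itself. Among the 10 members with a MYC WT mean of at least 10, the same fit called 9 higher and 0 lower, with a median of 2.17. At an unadjusted p under 0.05, 0 of the 25 were lower, nor did edgeR or DESeq2 call any lower. The comparison shares the MYC MUT libraries with the one against MYC WT, so the 2 are not separate evidence. PCDHA10 differed by 2.44 on the log2 scale (SE 0.15, adjusted p = 6.44e-07), PCDHB14 by 4.83 (SE 0.31, adjusted p = 7.58e-07), PCDHGA7 by 2.57 (SE 0.19, adjusted p = 2.14e-06) and PCDHGB7 by 4.10 (SE 0.35, adjusted p = 6.34e-06). PCDHGC3 again stayed under the fold required (0.45, SE 0.11, adjusted p = 0.00692).

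Genes around the clusters were counted for comparison. Within 1 Mb of the outermost members, 40 of 98 other genes were tested, of which 9 were called higher and 1 lower in MYC MUT, with a median log2 fold change of 0.14. Between the outermost members, TAF7, a subunit of the general transcription factor TFIID, had 10382, 9467 and 10822 counts in MYC WT and 15282, 15044 and 13738 in MYC MUT (log2 fold change 0.52, SE 0.08, adjusted p = 0.000464). Its neighbour SLC25A2, a mitochondrial ornithine carrier, had 43.1, 49.4 and 47.2 against 38.8, 31.1 and 34.1 (log2 fold change -0.42, SE 0.19, adjusted p = 0.103). Other genes of chromosome 5 had a median of 0.04, with 102 of 933 called higher and 57 lower, against the same 11.3% and 10.1%. In SWP the neighbours had 1 call, PCDH1, which was higher, against 2.15% of all tested genes.

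**Figure D5:**
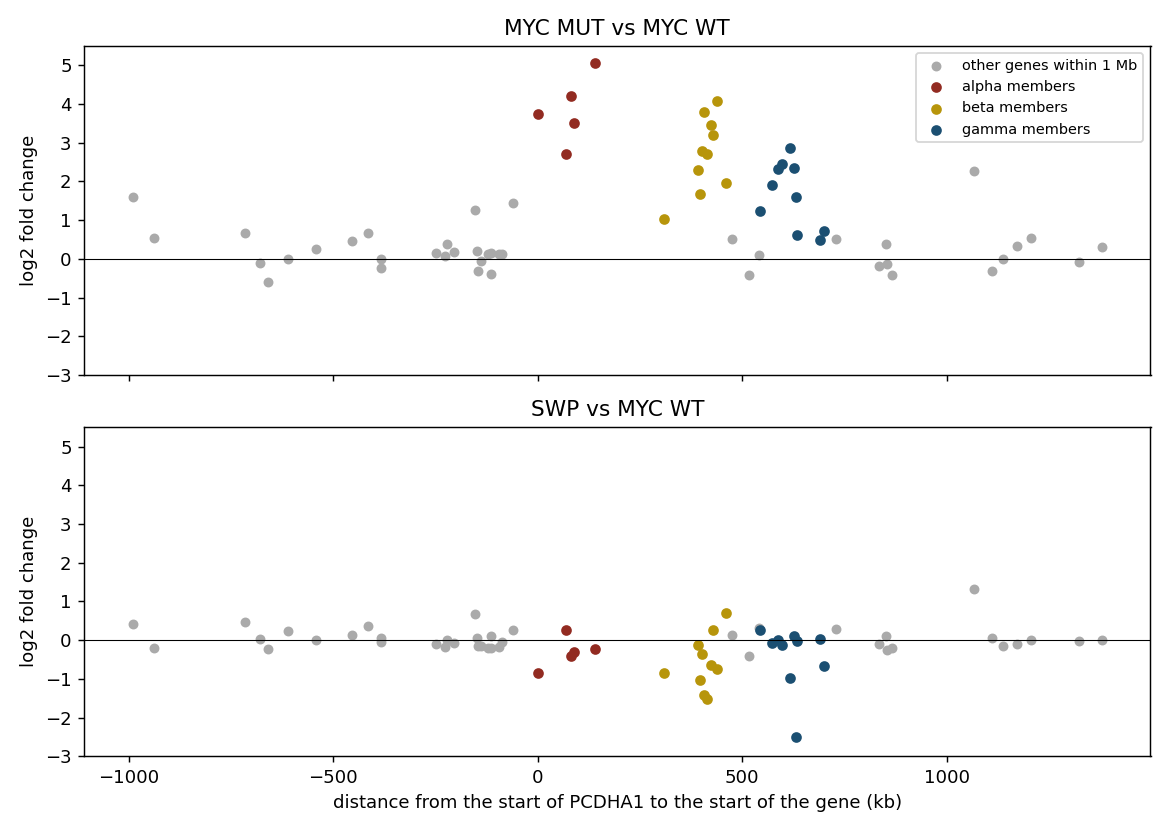
Log2 fold change over MYC WT of tested genes against the distance in kb from the start of PCDHA1 to the start of the gene, for MYC MUT (upper panel) and SWP (lower panel), with alpha, beta and gamma members in colour and other genes within 1 Mb in grey. In MYC MUT the plotted members lie above 0, 13 of which reached the minimum only through MYC MUT, with a median of 1.42 over the 10 with a MYC WT mean of at least 10 beside 0.14 for the grey genes. In SWP, 7 of the 25 members lie above 0, with a median of -0.31 beside -0.0006 for the grey genes, and PCDHGB7 is lowest at -2.50.

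The cluster's element was set beside the rise in MYC MUT, but these counts cannot decide whether they go together. PCDHA2, PCDHA5, PCDHA6 and PCDHA8, which have the element and overlapped, had at most 2 reads over all libraries. Absence means only that no exact 9-letter match was found. Of the alpha members with a window, 5 of 9 with the element had MYC MUT above MYC WT without overlap. So did 3 of the 4 in whose window it was not found, PCDHA11, PCDHAC1 and PCDHAC2. The window of PCDHA11 begins at chr5:140868707, inside the gene, which starts at chr5:140868183 in GENCODE. That of PCDHA9 lies inside its gene too. Sequence before the GENCODE start was not searched in either, so they cannot be counted as lacking the element. All 13 beta members with the element had MYC MUT above MYC WT without overlap, and PCDHB1, without it, had no read. In gamma these were 8 of 10 members with the element and 9 of 10 without.

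Genes that act on clustered protocadherins were described from lists. Their counts of calls in MYC MUT stand beside 11.3% higher and 10.1% lower among all tested genes. Of 14 tested cohesin and CTCF genes, 0 were called higher and 2 lower in MYC MUT, with a median log2 fold change of -0.18. They were RAD21, a core subunit of the cohesin ring (24003, 28915 and 26034 counts in MYC WT, 15736, 15858 and 15614 in MYC MUT, log2 fold change -0.74, SE 0.07, adjusted p = 2.37e-05), and SMC3, another (log2 fold change -0.62, SE 0.06, adjusted p = 3.02e-05). At an unadjusted p under 0.05, 2 of the list were higher and 8 lower, and edgeR and DESeq2 called 0 higher. CTCF, which binds protocadherin promoters, was at 0.22 (adjusted p = 0.146).

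Of 19 silencing and DNA methylation genes, 0 were called higher and 1 lower, TET1, which oxidises methylated cytosine (log2 fold change -0.59, SE 0.13, adjusted p = 0.00451). At an unadjusted p under 0.05, 0 were higher and 11 lower, and edgeR and DESeq2 called 0 higher. Of 15 genes of the actin-regulating WAVE complex and cytoplasmic partners, 0 were higher and 2 lower, WASF2, a WAVE subunit (log2 fold change -0.74, adjusted p = 0.000119), and the focal adhesion kinase PTK2 (-0.67, adjusted p = 0.000109), while 2 were higher and 6 lower at an unadjusted p under 0.05. None of the 7 genes of the ADAM10 and gamma-secretase proteases that cut protocadherins was called (2 higher and 1 lower at an unadjusted p under 0.05), and edgeR and DESeq2 called none of the WAVE list higher and none of the proteases.

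In SWP, limma, edgeR and DESeq2 called none of these 4 lists in either direction. At an unadjusted p under 0.05 they had 1 higher and 1 lower for cohesin and CTCF, 0 and 4 for silencing, 1 and 1 for WAVE, and 0 and 1 for the proteases.

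Relatives outside the clusters moved in both directions. Of 9 tested non-clustered protocadherins, 4 were called higher and 1 lower in MYC MUT, against 11.3% and 10.1% of all tested genes. PCDH10 went from a mean of 2171 to 12588 counts (log2 fold change 2.56, SE 0.14, adjusted p = 5.82e-07) and PCDH1 from 111 to 539 (2.28, SE 0.17, adjusted p = 4.42e-06), while PCDH19 rose by 0.84 (adjusted p = 0.00282). In SWP, PCDH1 rose by 1.31 (SE 0.17, adjusted p = 0.000738) and PCDH17 by 0.83 (SE 0.12, adjusted p = 0.00102). Of 11 tested classical and related cadherins, 5 were higher and 1 lower in MYC MUT, beside the same shares of all tested genes. CDH4 went from 31.5 to 487 counts (log2 fold change 3.92, SE 0.23, adjusted p = 7.09e-07) and CDH24 from 1012 to 1521 (0.59, SE 0.08, adjusted p = 0.000186). In SWP 1 of the 11 was higher and 3 were lower, against 2.15% and 2.98% of all tested genes.

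Markers of other cell types were set beside these results. The 6 genes typical of HEK293T, such as PAX2, VIM and NEFL, summed to 74317 to 85862 counts in MYC WT, 76319 to 87972 in MYC MUT and 66245 to 74990 in SWP, of which VIM gave most. In MYC MUT, NEFL (1.07), LHX1 (0.76) and PAX2 (0.69) of these were called higher and NEFM (-0.58) lower on the log2 scale, and in SWP INA (1.44) was called higher and NEFL (-0.54) lower. Of mature kidney, UMOD had no read in any library, while LRP2 had means of 3918, 4005 and 4638 in MYC WT, MYC MUT and SWP. The 9 markers of mature neurons, which use clustered protocadherins, summed to 1262 to 1825, 2630 to 3035 and 1645 to 2020. All 5 that reached the minimum were called higher in MYC MUT, against 11.3% of all tested genes. The minimum favours genes that are high in 1 line, and SNAP25 had a mean under 10 in MYC WT. In SWP 0 were called higher, against 2.15% of tested genes (1 higher at an unadjusted p under 0.05, 0 by edgeR and DESeq2). Of 5 tested astrocyte and oligodendrocyte markers, 4 were called lower in MYC MUT and 2 in SWP, against 10.1% and 2.98% of all tested genes. SNAP25, a synaptic vesicle fusion protein, went from 5.18 to 175 counts in MYC MUT (log2 fold change 4.83), and SYP, which made up most of the sum, from 1389 to 2258 (0.71). Other neuron markers stayed at few counts, with MYC WT and MYC MUT means of 2.42 and 2.55 for DCX, 1.71 and 0.648 for STMN2, and 0.683 and 0 for ELAVL4. The 6 fibroblast markers summed to 1246 to 1492, 2055 to 2160 and 879 to 1333, the 6 of astrocytes and oligodendrocytes to 353 to 462, 180.3 to 200.3 and 163 to 348, and the 4 of blood to 69.7 to 90.5, 94.3 to 108 and 57.3 to 73.8. The part of these differences in the protocadherin results was not tested.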

How the data were processed

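RNA-seq of 9 HEK293T libraries was analysed, and the study's other assays were not analysed here. The authors sequenced strand-specific poly(A) libraries, aligned reads to hg38 with BWA 0.7.17-r2188 (cutadapt 1.18 is also named in the submitters' processing notes), removed duplicates and counted reads on GENCODE genes. The counting tool and its use of strand are not given in the sources used here. The deposited values are a signal that is never negative, the read count per gene divided by a DESeq2 size factor. Undoing that division gave whole reads, to within 0.001, for 100% of the values.

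The members and gene lists were chosen with earlier results of these data known. Limma 3.58.1 in R 4.3.3 (lmFit, eBayes with a trend) was fitted to log2(normalized count + 1) of all 9 libraries, over genes with a mean of at least 10, with Benjamini-Hochberg adjustment over all 20884. Fold changes are on that scale and understate those of low genes. Thresholds for a call were 0.05 on the adjusted p and 0.5 on the absolute log2 fold change. A single gene could not go below 0.1 in an exact permutation test of 3 against 3. Named were the C-type members, the 3 most abundant members of each cluster, the 2 largest called rises and falls per cluster against MYC WT and, per list, up to 3 called genes with a mean of at least 50. The other members named in the text were chosen after their values were seen. Reads allow 95% exact binomial intervals, and a count of 0 allows 3 reads over the group, both for counting error only. GENCODE release 44 matched 57754 of 58336 identifiers, whereas the methods name release 42. The fits were tested on simulated data.

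Deviations of same-numbered libraries correlated at 0.555, 0.403 and 0.102 between SWP and MYC WT and at 0.333, 0.241 and 0.232 between MYC MUT and SWP. Between MYC MUT and MYC WT the correlations were 0.328, 0.146 and 0.0490. The main fits were unpaired in every comparison, and the replicate number entered as a block only in an alternative fit. SWP replicate 3 correlated more with MYC WT replicate 2 (0.263) than with replicate 3, so pairing was borne out only in part. Alternatives were other pseudocounts, minimum counts, scalings, fold thresholds and groups in the fit, eBayes without a trend, the replicate block, edgeR 4.0.16, DESeq2 1.42.0 and leaving out each library. The minimum mean in MYC WT and edgeR on all genes were added after seeing the data. Figures used matplotlib 3.10.9 in Python 3.11.15. The summed level of the mature kidney markers is not reported here.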

Additional observations from a re-analysis of the deposited data

How the results depend on the processing

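No called member or cluster ratio changed direction under an alternative, while uncalled values near 0 in SWP crossed it, from -0.66 to 0.15 for PCDHAC1, -0.06 to 0.03 for PCDHGA11 and -0.04 to 0.10 for PCDHGC3 on the log2 scale. Against MYC WT, 24 members were called higher in MYC MUT, with 24 to 25 when each library was left out, 38 over all genes with any count, 7 at a minimum mean of 50, and, chosen after seeing the data, 9 at a minimum mean of 10 in MYC WT and 39 by edgeR over all genes. Against SWP the 24 became 23 to 24, 7 at a minimum mean of 50 and 9 at the minimum in MYC WT, each with fewer members tested. The 4 called lower in SWP became 2 to 4 with each library left out (2 without MYC WT replicate 2 or 3), 2 at a minimum mean of 50, 1 with only the 2 groups in the fit (PCDHGB7) and 2 at a log2 fold change over 1. With the replicate block the counts were 24 higher against MYC WT, 24 higher against SWP and 5 lower in SWP, and the block changed no other member call. The alpha ratio of MYC MUT to MYC WT was 10.2 at equal library totals and 9.21 to 10.1 with each library left out, against SWP 8.84 and 8.26 to 8.99, and the gamma ratio to MYC WT was 1.92 and 1.78 to 1.90. Per kilobase of all exon, PCDHGC3 was 4.63 times PCDHA10 in MYC MUT, against 4.89 on exon of their own. PCDHGC3 passed the fold threshold in 8 of 19 alternatives, the scalings, edgeR and DESeq2 among them. PCDHGA9 lost its call in MYC MUT at a pseudocount of 0.1 (adjusted p = 0.0590) and gained one in SWP without SWP replicate 1 (adjusted p = 0.0480). Members with a few reads per library are limited by counting. The cause was not tested.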
